A study of Bos taurus with 6 samples.

Results

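The 33 genes described here encode insulin and IGF receptors and the PI3K, AKT, TSC and mTOR components that carry their signal. They are a fixed list of symbols from the 23704 bovine genes named in the data, and no cut-off on measured values was applied. The list was proposed with earlier results of these data known. All 33 were found, and all 33 passed the low-count filter that left 14639 genes for testing. RNA was sequenced from pools of bovine primordial follicles (PMF), the dormant stage in which a small oocyte is enclosed by flat pre-granulosa cells. The T16 group held 3 pools of PMF after 16 h of culture, and the T0 group held 3 pools of PMF retrieved after collection. Both groups were isolated mechanically. By the study's methods, ovaries came from young Holstein Friesian dairy cows at an abattoir, PMF were separated by serial straining, and the study's PMF were lysed after 1 h of recovery in a medium with insulin, transferrin, selenium and FSH, a step taken here to apply to T0. The T16 culture medium is not given in the sources used here, so whether insulin differed between the groups cannot be stated. The study describes its PMF pools as biological replicates, with unequal numbers of follicles. No source used here says which animals contributed to which pool, so the spread between libraries may still be partly technical.

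Insulin and IGF receptors, through adaptors such as IRS1, recruit PI3K, whose catalytic subunits phosphorylate a membrane lipid and whose regulatory subunits hold and position them. The lipid brings PDPK1 and AKT to the membrane. AKT then restrains the TSC complex, which frees the small GTPase RHEB to switch on mTOR complex 1, and that complex phosphorylates S6 kinases and the EIF4E-binding proteins and so raises protein synthesis. In mice, this pathway in the oocyte and mTOR complex 1 in pre-granulosa cells control the exit of PMF from dormancy. The pathway is driven mostly by phosphorylation and localisation, which RNA levels do not measure.

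Total estimated counts ranged from 25761986 to 36703016 in T16 libraries and from 22174653 to 30212698 in T0 libraries. All 15 oocyte markers were detected in every library, but their summed level ranged from 44.5 to 1975 TPM (a transcript level corrected for length and library size) at T16 and from 470 to 2950 TPM at T0, with T16 replicate 2 and T0 replicate 1 lowest. The 10 granulosa markers summed to 953 to 9118 TPM at T16 and 1360 to 9676 TPM at T0, highest in those same libraries. Most of that sum was KRT8 and KRT18 in them, and the other 8 granulosa markers summed to 515, 1490 and 505 TPM at T16 and 728, 1599 and 878 TPM at T0, which put T0 replicate 1 lowest at T0. Markers of other cells were present too. The sums were 272 to 1655 TPM at T16 and 1063 to 2443 TPM at T0 for 7 stromal genes, 49.1 to 1822 TPM at T16 and 472 to 3618 TPM at T0 for 5 steroidogenic genes, 30.7 to 109 TPM at T16 and 115 to 441 TPM at T0 for 7 smooth muscle genes, and 13.4 to 32.9 TPM at T16 and 20.5 to 387 TPM at T0 for 6 endothelial genes. The 6 white blood cell markers summed to 2.74 to 52.9 TPM at T16 and 8.31 to 44.2 TPM at T0, with CD53 at 0 in all 6 libraries. Of the 3 red blood cell markers, HBB and ALAS2 were at 0 in all 6 libraries and HBA had 4.31 to 15.4 TPM at T16 and 8.9 to 20.4 TPM at T0. In such bulk pools, fewer cells of a type and less RNA per cell cannot be told apart. T16 replicate 2 correlated with T0 replicate 1 at r = 0.868 across genes on the log2 CPM scale, above the 0.736 to 0.839 among T16 libraries.

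Most of the pathway kept overlapping levels at T16 and T0. PIK3CA, a catalytic subunit of PI3K, and EIF4E, the protein that binds the mRNA cap, were higher in every T16 library than in any T0 library, while PIK3CD, another catalytic subunit, and INSR, the insulin receptor, were lower in every T16 library. The other 29 genes overlapped. Across all genes tested, 11.5% lay wholly higher and 11.6% wholly lower at T16, against 2 and 2 of the 33 (6.06% each way), so the pathway's share was not above the background.

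No gene of the 33 passed an FDR of 0.05 with edgeR's quasi-likelihood test, by which 0.041% of all genes were called, and the lowest adjusted p was 0.0921. At an unadjusted edgeR p under 0.05, 2 were higher, against 8.61% of all genes, and 2 were lower, against 5.14% of all genes. DESeq2 called PIK3CA and EIF4E higher, 6.06% of the 33 against 4.06% of all genes, and PIK3CD lower, 3.03% of the 33 against 2.96% of all genes. The edgeR log2 fold change was above 0 for 18 genes and below 0 for 15. Its median was 0.20 over the 33 and -0.08 over all genes tested, and its median size without sign was 0.52 over the 33 and 0.63 over all genes. Values per library are given below in the order of replicates 1, 2 and 3 of each group, and fold changes are T16 over T0.

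**Figure D1:**
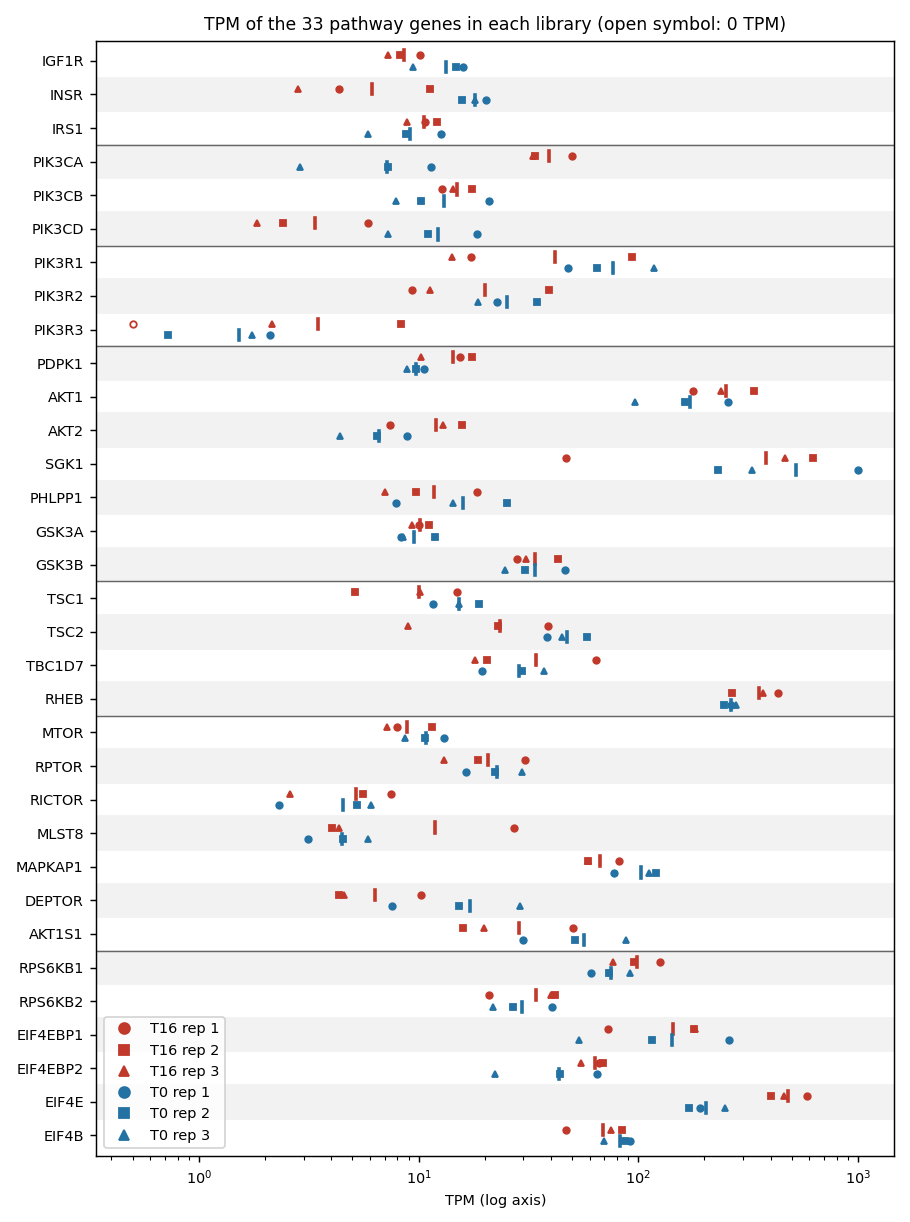
Level in TPM (log axis) of each of the 33 genes in the T16 libraries (red, upper row of each gene) and the T0 libraries (blue, lower row), with vertical bars at group means and lines between functional groups. PIK3CA and EIF4E lie wholly to the right at T16 and PIK3CD and INSR wholly to the left, while PIK3R3 was at 0 TPM in T16 replicate 1 (open symbol, drawn at the left edge).

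The PI3K catalytic subunits had the largest median change without sign of the functional groups, 1.99 on the log2 scale for 3 genes. PIK3CA, the subunit often called p110 alpha, which acts downstream of receptor tyrosine kinases in most tissues, had 50.0, 34.0 and 33.2 TPM at T16, against 11.4, 7.27 and 2.88 TPM at T0. Its lowest T16 library stood well above its highest T0 library. The mean was 39.1 ± 9.46 TPM at T16 and 7.18 ± 4.26 TPM at T0 (SD, n = 3 each), a ratio of 5.45. The edgeR log2 fold change of PIK3CA was 2.53 (SE 0.46, 95% interval 1.45 to 3.61), with an edgeR adjusted p of 0.0921 and a DESeq2 adjusted p of 3.54e-05. Among the 33 genes ordered by mean TPM, it stood at rank 11 at T16 and at rank 29 at T0.

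PIK3CD, the p110 delta subunit, best known from white blood cells, moved the other way. It had 5.88, 2.41 and 1.83 TPM at T16, against 18.5, 11.0 and 7.27 TPM at T0. Its levels were low throughout, and it was the lowest of the 33 by mean at T16. The log2 fold change of PIK3CD was -1.99 (SE 0.63, 95% interval -3.48 to -0.51, edgeR adjusted p = 0.221, DESeq2 adjusted p = 0.0312). Without T0 replicate 1 it was -1.39 (edgeR adjusted p = 0.39). The white blood cell marker sum was mostly CSF1R in every library except T16 replicate 2. CSF1R had 37.8, 0.0736 and 6.89 TPM at T16 and 8.31, 40.3 and 42.4 TPM at T0, the order of the oocyte marker sum in both groups. The other 5 summed to 15.1, 2.66 and 5.51 TPM at T16 and 0, 1.23 and 1.85 TPM at T0. Among them, CD68 was wholly higher at T16, with 14.2, 1 and 5.51 TPM, against 0, 0 and 0.838 TPM at T0. The part of white blood cells in the PIK3CD values was not tested.

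PIK3CB, the p110 beta subunit, which also responds to G protein-coupled receptors, did not separate the groups. It had 12.8, 17.5 and 14.4 TPM at T16 and 21.0, 10.3 and 7.86 TPM at T0, with a log2 fold change of 0.27 (95% interval -0.92 to 1.47). The makeup of the 3 subunits, a summary chosen after the values were seen, was computed from these same values and was not tested. PIK3CA made up 72.8, 63.2 and 67.2% of their summed TPM at T16 and 22.4, 25.5 and 16% at T0. PIK3CD made up 8.56, 4.48 and 3.69% at T16 and 36.4, 38.4 and 40.4% at T0. The remainder was PIK3CB, at 18.7, 32.4 and 29.1% at T16 and 41.2, 36.2 and 43.7% at T0. PIK3CA was thus the most abundant of the 3 in each T16 library, and the least abundant in each T0 library, where PIK3CB led in replicates 1 and 3 and PIK3CD in replicate 2. The summed level itself overlapped, at 68.7, 53.9 and 49.4 TPM at T16 and 50.9, 28.6 and 18 TPM at T0.

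The ratio of PIK3CA to PIK3CB, which does not depend on the scaling of a library, was 3.9, 1.95 and 2.31 at T16 and 0.543, 0.704 and 0.366 at T0. The mean log2 ratio was 2.32 higher at T16, or 5.01-fold. It was the only one of 7 ratios of related genes whose groups did not overlap, and its two-sided exact permutation p was 0.1, the smallest that 3 against 3 libraries allow, or 0.7 after Benjamini-Hochberg adjustment over the 7.

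**Figure D2:**
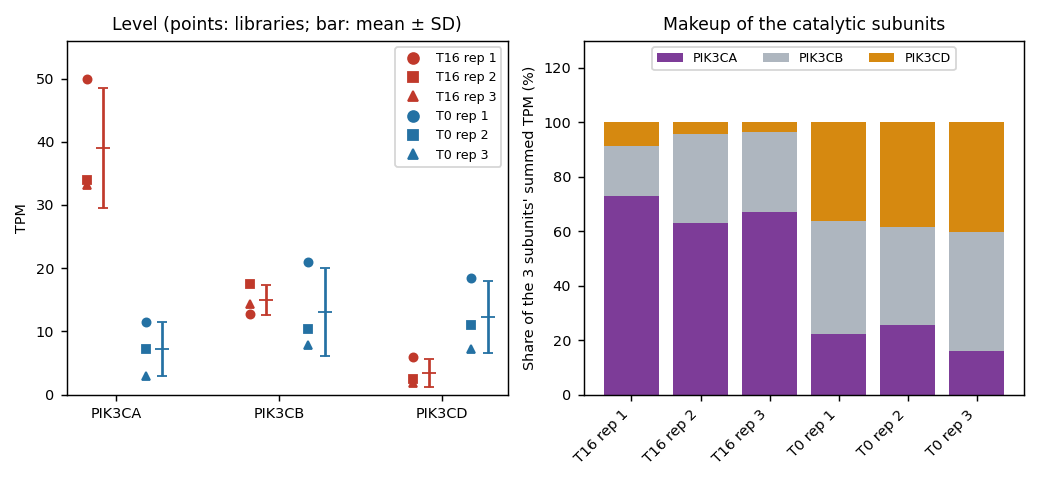
Left, TPM of the 3 PI3K catalytic subunit genes in each T16 (red) and T0 (blue) library, with mean ± SD (n = 3). Right, share of each subunit in the summed TPM of the 3 (%), where PIK3CA held 63.2 to 72.8% in T16 libraries and 16 to 25.5% in T0 libraries.

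The transcripts of PIK3CA moved together. Salmon divides reads between transcripts of one gene by estimation, so these levels are less certain than gene totals. The curated transcript of 3207 bases had 33, 25 and 22.6 TPM at T16 and 8.73, 5.4 and 0.967 TPM at T0. A predicted transcript of 11596 bases had 16.3, 7.87 and 10.3 TPM at T16 and 2.65, 1.88 and 1.91 TPM at T0. The third, of 11638 bases, had 0.77, 1.19 and 0.329 TPM at T16 and was at 0 in all T0 libraries. Each of the 3 therefore lay wholly higher at T16. For PIK3CD the split over 7 transcripts changed order between libraries, and none of the 7 was wholly higher at T16.

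The receptors and adaptor at the head of the pathway had low levels. INSR had 4.34, 11.3 and 2.82 TPM at T16, against 20.3, 15.8 and 18.1 TPM at T0. The T0 libraries lay close together, and T16 replicate 2 came nearest to them. The log2 fold change of INSR was -1.44 (SE 0.53, 95% interval -2.69 to -0.19, edgeR adjusted p = 0.288, DESeq2 adjusted p = 0.094). Without T16 replicate 2, the library with the least oocyte marker RNA, it was -2.23 (edgeR adjusted p = 0.0846). Without T16 replicate 3 it was -1.17 (edgeR adjusted p = 0.521), and the other fits with 1 library left out lay between these values.

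IGF1R, the receptor for IGF1, had 10.1, 8.26 and 7.27 TPM at T16 and 15.9, 14.8 and 9.45 TPM at T0. The groups overlapped only through T0 replicate 3 and T16 replicate 1, and the log2 fold change was -0.57 (95% interval -1.53 to 0.39). IRS1, the adaptor that links both receptors to PI3K, ranged from 8.90 to 12.1 TPM at T16 and from 5.90 to 12.7 TPM at T0. Its log2 fold change of 0.27 had a 95% interval of -0.70 to 1.23.

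The regulatory subunits of PI3K varied more within the groups than between them. PIK3R1, which encodes p85 alpha and was the most abundant of the 3, had 17.3, 93.2 and 14.2 TPM at T16 and 47.8, 64.8 and 118 TPM at T0. A single T16 library, replicate 2, made the groups overlap. The log2 fold change of PIK3R1 was -0.63 (95% interval -2.38 to 1.12). It was -0.24 without T0 replicate 3 (edgeR adjusted p = 0.972) and -2.00 without T16 replicate 2 (edgeR adjusted p = 0.113). PIK3R2, encoding p85 beta, had 9.35, 39.3 and 11.3 TPM at T16 and 22.8, 34.7 and 18.6 TPM at T0, with the same library highest. Its log2 fold change was -0.26. It was -1.12 without T16 replicate 2 (edgeR adjusted p = 0.301) and 0.03 without T16 replicate 1 (edgeR adjusted p = 0.987). The ratio of PIK3R1 to PIK3R2 was 1.85, 2.37 and 1.26 at T16 and 2.1, 1.87 and 6.36 at T0 (exact permutation p = 0.4, two-sided). PIK3R3 was scarce, at 0, 8.28 and 2.16 TPM at T16 and 2.11, 0.725 and 1.74 TPM at T0, and its 0 of the counts in T16 replicate 1 allows up to 0.104 CPM (counts relative to library size), by counting error only.

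The makeup of PIK3R1 transcripts differed more than its total, a pattern picked out after the values were seen and not tested. A transcript of 5516 bases had 0, 1.68 and 0.0762 TPM at T16, against 5.04, 22 and 68.9 TPM at T0. This was 0, 1.8 and 0.536% of the gene's TPM at T16 and 10.5, 34 and 58.2% at T0. The transcript of 6745 bases held 60.5, 60.7 and 48.6% at T16 and 41.3, 16.9 and 5.44% at T0. The oocyte marker sums of these libraries were 1975, 44.5 and 769 TPM at T16 and 470, 2103 and 2950 TPM at T0. The share of the 5516-base transcript had the reverse of their order at T16, where it did not exceed 1.8%. It had the same order at T0. The part of oocyte content in the transcript makeup was not tested. Only transcripts that could be matched to a gene name were counted. Of the 33 genes, 11 had 1 such transcript, 12 had several with the same leading transcript wherever the gene was detected, and 10 changed the leading transcript between libraries.

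**Figure D3:**
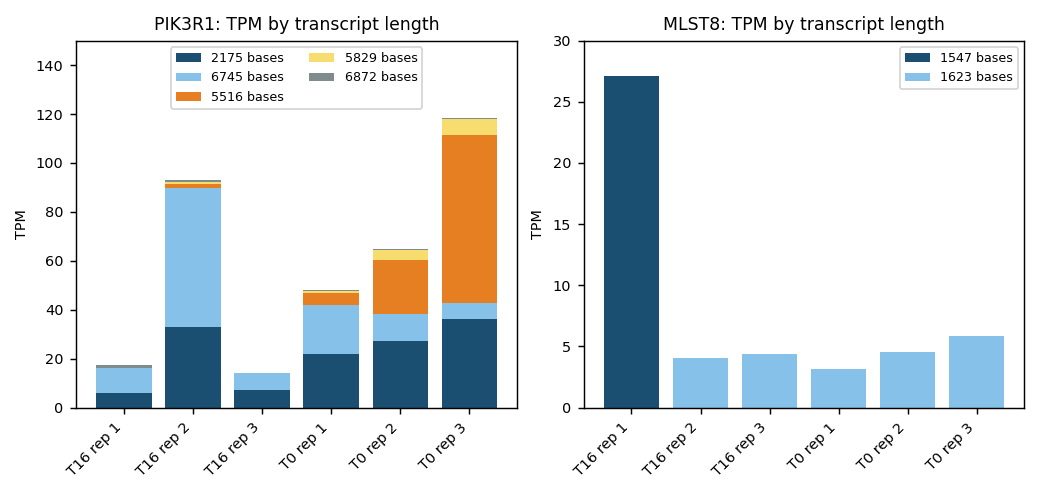
TPM of PIK3R1 (left) and MLST8 (right) in the 3 T16 and 3 T0 libraries, stacked by annotated transcript, which is named by its length in bases. The 5516-base PIK3R1 transcript had at most 1.68 TPM at T16 and 5.04 to 68.9 TPM at T0, and the 1547-base MLST8 transcript was detected in T16 replicate 1 only.

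Among the kinases around AKT, SGK1 was the most abundant and the least steady. It encodes a kinase related to AKT that is induced by serum, steroids and cell stress. SGK1 had 46.8, 627 and 467 TPM at T16 and 1001, 230 and 328 TPM at T0, a 21.4-fold range over the 6 libraries. T16 replicate 1 was lowest and T0 replicate 1 highest. For SGK1 the log2 fold change was -0.39 with a 95% interval from -2.69 to 1.91, and it was 0.70 without T0 replicate 1 and 0.13 without T16 replicate 1.

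AKT1 had 177, 335 and 239 TPM at T16 and 257, 163 and 96.1 TPM at T0, with a log2 fold change of 0.61 (95% interval -0.58 to 1.79). AKT2 was far less abundant, at 7.42, 15.7 and 12.9 TPM at T16 and 8.89, 6.49 and 4.37 TPM at T0 (log2 fold change 0.83, 95% interval -0.59 to 2.26). Both genes were highest at T16 in replicate 2 and highest at T0 in replicate 1, so their ratio was steadier than either. It was 23.9, 21.3 and 18.5 at T16 and 28.9, 25.2 and 22 at T0 (exact permutation p = 0.2, two-sided). PDPK1, the kinase that activates AKT, had a log2 fold change of 0.64 (95% interval -0.12 to 1.39, edgeR adjusted p = 0.451), with 10.3 to 17.5 TPM at T16 and 8.87 to 10.6 TPM at T0.

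The GSK3 kinases, which AKT inhibits, overlapped between the groups. GSK3A had 10, 11.1 and 9.3 TPM at T16 and 8.29, 11.9 and 8.45 TPM at T0, the narrowest range of the 33 at 1.44-fold. GSK3B had 27.9, 43.1 and 30.8 TPM at T16 and 46.5, 30.4 and 24.7 TPM at T0. By edgeR the changes on the log2 scale were 0.21 (95% interval -0.84 to 1.26) and 0.20 (95% interval -0.80 to 1.20), and their ratio did not separate the groups (exact permutation p = 0.9, two-sided). PHLPP1, a phosphatase that switches AKT off, ranged from 7.05 to 18.5 TPM at T16 and from 7.93 to 25.3 TPM at T0.

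RHEB, the GTPase that activates mTOR complex 1, stood out among the next group by its level and by how little it varied at T0. It had 431, 268 and 368 TPM at T16 and 265, 245 and 279 TPM at T0, a 1.14-fold range within T0. Its edgeR log2 fold change was 0.55 (95% interval -0.20 to 1.31, edgeR adjusted p = 0.518). By mean level RHEB held rank 3 of the 33 at T16 and rank 2 at T0. The TSC genes, whose product restrains RHEB, were far less abundant. TSC2 had 38.7, 23.0 and 8.92 TPM at T16 and 38.6, 58.4 and 44.8 TPM at T0, overlapping only in that T16 replicate 1 was just above T0 replicate 1. Its log2 fold change was -0.94 (95% interval -2.03 to 0.14, edgeR adjusted p = 0.431). It was -1.52 without T16 replicate 1 (edgeR adjusted p = 0.211) and -0.60 without T16 replicate 3 (edgeR adjusted p = 0.622). TSC1 ranged from 5.14 to 15.0 TPM at T16 and from 11.6 to 18.8 TPM at T0, and TBC1D7, the third subunit, from 18.1 to 64.1 TPM at T16 and from 19.4 to 37.1 TPM at T0.

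None of the 7 genes of the mTOR complexes separated the groups. MTOR itself, the kinase shared by both complexes, had 7.19 to 11.5 TPM at T16 and 8.65 to 13.0 TPM at T0 (log2 fold change -0.20, 95% interval -1.05 to 0.65). RPTOR, which defines complex 1, had 30.4, 18.7 and 13.0 TPM at T16 and 16.4, 22.2 and 29.6 TPM at T0. RICTOR, which defines complex 2, had 7.45, 5.60 and 2.59 TPM at T16 and 2.32, 5.22 and 6.09 TPM at T0. The ratio of RPTOR to RICTOR was 4.07, 3.34 and 5.02 at T16 and 7.07, 4.24 and 4.87 at T0, so RPTOR was the more abundant in every library, and the groups overlapped (exact permutation p = 0.3, two-sided).

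MAPKAP1, the SIN1 subunit of complex 2, was the most abundant of the 7. It had 82.0, 59.2 and 59.2 TPM at T16 and 77.1, 120 and 112 TPM at T0, with a log2 fold change of -0.52 (95% interval -1.17 to 0.14, edgeR adjusted p = 0.482). The inhibitory partners DEPTOR and AKT1S1 (AKT1S1 is also named PRAS40) had lower means at T16 but overlapping libraries. DEPTOR had 10.2, 4.33 and 4.56 TPM at T16 and 7.59, 15.2 and 28.8 TPM at T0 (log2 fold change -1.38, 95% interval -2.81 to 0.05, edgeR adjusted p = 0.38). AKT1S1 had 50.3, 16.0 and 19.9 TPM at T16 and 29.9, 51.6 and 88.1 TPM at T0 (log2 fold change -0.84, 95% interval -2.12 to 0.44). DEPTOR and AKT1S1 were highest in each group where the oocyte marker sum was highest, in T16 replicate 1 and T0 replicate 3.

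MLST8, a subunit of both complexes, had 27.1, 4.03 and 4.36 TPM at T16 and 3.13, 4.52 and 5.86 TPM at T0. A single library held the difference in means, since T16 replicate 1 had 628 counts and the other 5 had 75 to 160. For MLST8 the log2 fold change was 1.40 (95% interval -0.62 to 3.42) and 0.01 without T16 replicate 1. In that library all of its reads were given to the 1547-base transcript, which was at 0 in the other 5, where all reads were given to the 1623-base transcript.

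**Figure D4:**
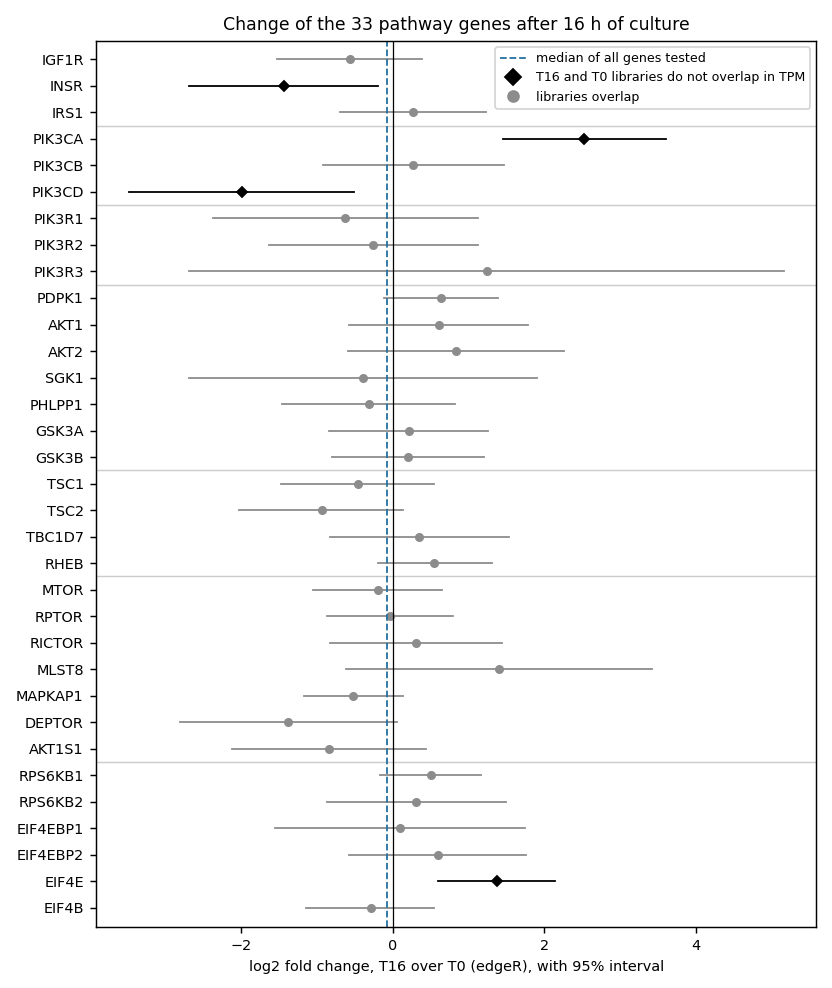
Log2 fold change, T16 over T0, of the 33 genes from the edgeR fit over all genes, with 95% intervals, lines between functional groups and a dashed line at the median of all genes tested (-0.08). The 4 genes whose T16 and T0 libraries do not overlap in TPM (black diamonds) have intervals clear of 0, and the other 29 (grey circles) have intervals that include 0.

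At the effector end, EIF4E was the most abundant of the 33 genes at T16. The cap-binding protein it encodes starts the translation of most mRNAs and is held inactive by the EIF4E-binding proteins until mTOR complex 1 phosphorylates them. EIF4E had 584, 402 and 461 TPM at T16, against 191, 170 and 247 TPM at T0. The groups were well apart, with no T16 library under 402 TPM and no T0 library over 247 TPM. The mean was 482 ± 92.7 TPM at T16 and 203 ± 39.4 TPM at T0 (SD, n = 3 each), a ratio of 2.38. The log2 fold change of EIF4E was 1.37 (SE 0.33, 95% interval 0.60 to 2.14), with an edgeR adjusted p of 0.136 and a DESeq2 adjusted p of 0.0089.

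The binding proteins did not separate in the same way. EIF4EBP1 had 73.1, 179 and 181 TPM at T16 and 259, 115 and 53.5 TPM at T0 (log2 fold change 0.09, 95% interval -1.56 to 1.74). Leaving out T0 replicate 1 gave 1.02 for EIF4EBP1, and leaving out T0 replicate 3 gave -0.31, so its sign depended on the library left out. EIF4EBP2 had 66.0, 68.9 and 55.1 TPM at T16 and 64.6, 43.8 and 22.3 TPM at T0 (log2 fold change 0.59, 95% interval -0.58 to 1.76). Their ratio overlapped between the groups, at 1.11, 2.6 and 3.29 at T16 and 4.01, 2.62 and 2.4 at T0 (exact permutation p = 0.5, two-sided). The ratio of EIF4E to the sum of both binding proteins, chosen after the values were seen, was 4.2, 1.62 and 1.95 at T16 and 0.59, 1.07 and 3.25 at T0, and the groups overlapped.

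The S6 kinase genes also overlapped. RPS6KB1 had 125, 95.1 and 76.5 TPM at T16 and 61.1, 73.3 and 91.3 TPM at T0 (log2 fold change 0.50, 95% interval -0.17 to 1.17, edgeR adjusted p = 0.506). RPS6KB2 had 21.0, 41.8 and 40.2 TPM at T16 and 40.3, 26.9 and 21.7 TPM at T0 (log2 fold change 0.31, 95% interval -0.87 to 1.50). The ratio of RPS6KB1 to RPS6KB2 was 5.94, 2.28 and 1.9 at T16 and 1.52, 2.73 and 4.22 at T0, highest in each group in the library richest in oocyte markers (exact permutation p = 0.8, two-sided). EIF4B, an S6 kinase target that assists the helicase of translation initiation, had 46.8 to 84.2 TPM at T16 and 69.6 to 91.6 TPM at T0.

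The order of libraries within a group was compared with their order by oocyte marker sum, a description added after the values were seen. AKT1S1, DEPTOR and MLST8 had the same order as the oocyte sum in both groups, 9.09% of the 33 against 12.7% of all genes tested. AKT1, AKT2, EIF4B, GSK3B, PIK3CB and RPS6KB2 had the reverse order in both groups, 18.2% of the 33 against 9.75% of all genes. PIK3CA, PIK3CD, INSR and EIF4E followed neither order in both groups at once. Within T0, PIK3CA and PIK3CD had the reverse order, within T16 EIF4E had the oocyte order, and INSR had neither in either group. The part of oocyte content in their differences was not tested.

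With the mean oocyte marker level as a covariate, the log2 fold change was 2.52 for PIK3CA, 1.46 for EIF4E, -2.00 for PIK3CD and -2.15 for INSR, and edgeR adjusted p-values were 0.0711, 0.0908, 0.154 and 0.0615 in that order. With T16 replicate 2 and T0 replicate 1 both left out, an alternative added after the values were seen, the log2 fold change was 3.17 for PIK3CA, 1.56 for EIF4E, -1.24 for PIK3CD and -2.05 for INSR. All 4 kept their sign in both fits, and no edgeR adjusted p was below 0.05. With so few libraries, these fits cannot separate cell content from culture.

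Other genes of the pathway were read from 5 lists that hold none of the 33. These lists too were chosen with earlier results of these data known. Their shares beside all genes are therefore descriptions, not independent evidence that the lists changed. Of their 102 genes, 97 were tested, and 15 lay wholly higher and 20 wholly lower at T16 in TPM, together 36.1% against 23.1% of all genes tested. The median log2 fold change of the lists together was 0.00. edgeR called 1 of them, TRIB3 (1.03% against 0.041% of all genes). DESeq2 called 6 higher, 6.19% against 4.06% of all genes, and 8 lower, 8.25% against 2.96% of all genes. The genes named below are the non-overlapping ones of each list with the lowest edgeR p, at most 4 a list.

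The energy and stress list (16 genes, all tested) had 6 genes wholly higher and 1 wholly lower. These were 37.5% and 6.25% of the list, against 11.5% and 11.6% of all genes. TRIB3, a stress-induced pseudokinase that binds AKT, had 314, 87.9 and 123 TPM at T16, against 1.21, 0.484 and 0.718 TPM at T0. It rose by 7.64 on the log2 scale (SE 0.75, adjusted p = 0.0357 by edgeR), and each of its T16 libraries was far above the T0 level. The edgeR call was lost when any library other than T16 replicate 1 was left out, with log2 fold changes from 6.89 to 8.07 over the 6 fits that each left out a library. PRKAB2, a regulatory subunit of the energy sensor AMPK, had 64.8, 49.1 and 37.2 TPM at T16 and 27.3, 14.4 and 10.9 TPM at T0 (log2 fold change 1.55, edgeR adjusted p = 0.205). CAB39 and STRADA, partners of the kinase upstream of AMPK, lay apart in opposite directions, with log2 fold changes of 0.96 and -1.33 (edgeR adjusted p = 0.24 and 0.206).

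The amino acid branch (32 genes, all tested) had 4 genes wholly higher and 7 wholly lower, and the median log2 fold change was -0.16. Those counts were 12.5% and 21.9% of the list, against 11.5% and 11.6% of all genes. SLC7A5 and SLC3A2 encode the light and heavy chains of a transporter that brings leucine, an activator of mTOR complex 1, into the cell. SLC7A5 had 157, 74.9 and 76.5 TPM at T16 and 10.3, 2.69 and 10.9 TPM at T0 (log2 fold change 3.75, SE 0.65, edgeR adjusted p = 0.0921, DESeq2 adjusted p = 1.09e-06). SLC3A2 had 898, 494 and 729 TPM at T16 and 123, 190 and 236 TPM at T0 (log2 fold change 2.04, SE 0.39, edgeR adjusted p = 0.0987, DESeq2 adjusted p = 0.000316). Both chains were thus wholly higher after culture. SESN2, a leucine sensor that restrains mTOR complex 1, had 137, 67.7 and 87.7 TPM at T16 and 18.1, 46.2 and 21.0 TPM at T0 (log2 fold change 1.88, edgeR adjusted p = 0.132). RRAGD, one of the Rag GTPases that dock mTOR complex 1 on lysosomes, had 20.7, 11.5 and 9.13 TPM at T16 and 26.1, 54.1 and 42.2 TPM at T0 (log2 fold change -1.46, edgeR adjusted p = 0.152).

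**Figure D5:**
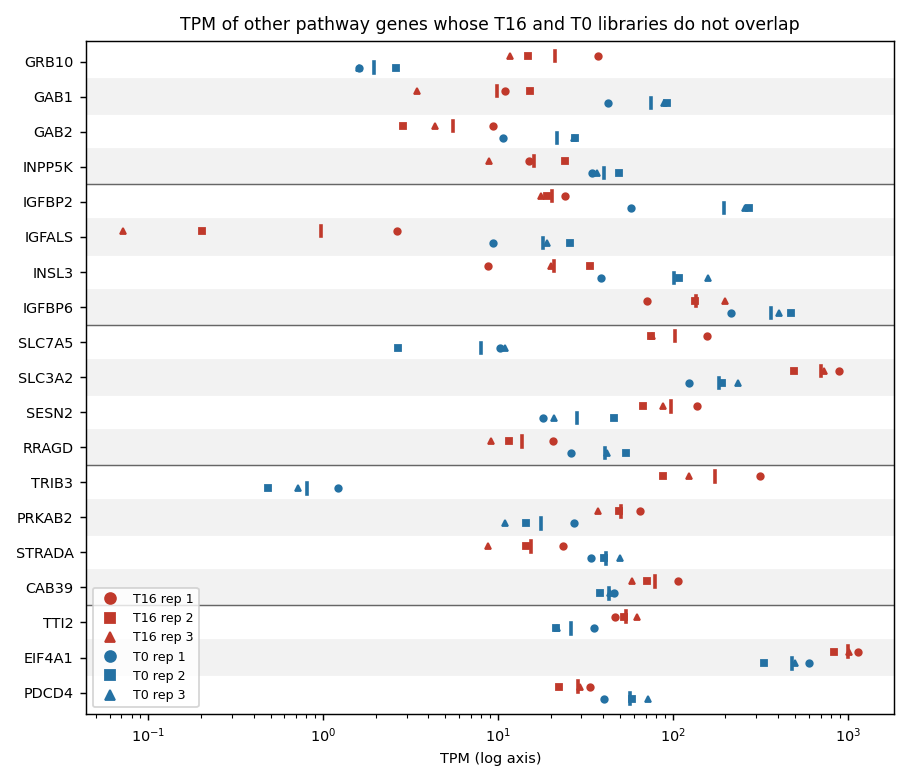
Level in TPM (log axis) of 19 genes from the 5 other lists, each chosen because its T16 libraries (red, upper row) and T0 libraries (blue, lower row) do not overlap, with vertical bars at group means. TRIB3 shows the widest gap, at 87.9 to 314 TPM in T16 libraries and 0.484 to 1.21 TPM in T0 libraries.

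Of 12 ligands and binding proteins, 10 were tested, and edgeR called none at an FDR of 0.05. At an unadjusted edgeR p under 0.05, 5 were lower, against 5.14% of all genes, and 0 were higher. DESeq2 called 3 lower, 30% of the list against 2.96% of all genes. The log2 fold change was below 0 for 9 of the 10, against 53.4% of all genes, and its median was -1.69. Wholly lower at T16 were 6 of the 10, against 11.6% of all genes, and 0 were wholly higher. IGFBP2, which binds IGFs outside the cell, had 24.2, 19.0 and 17.7 TPM at T16 and 57.4, 272 and 258 TPM at T0 (log2 fold change -3.10, SE 0.56, edgeR adjusted p = 0.0921, DESeq2 adjusted p = 1.82e-05). IGFALS, which stabilises IGF complexes in serum, had 2.63, 0.202 and 0.0715 TPM at T16 and 9.36, 25.9 and 19.0 TPM at T0. INSL3, an insulin-like hormone of theca cells that acts on a relaxin family receptor, had 8.75, 33.7 and 20.0 TPM at T16 and 38.6, 108 and 159 TPM at T0. IGFBP6, another IGF-binding protein, was wholly lower as well (log2 fold change -1.21, edgeR adjusted p = 0.354). Markers of several cell types differed beside these genes. The log2 fold change was below 0 for all 6 smooth muscle markers tested (median -1.85) and for 7 of the 10 granulosa markers (median -0.48). It was also below 0 for 13 of the 15 oocyte markers (median -0.68) and 4 of the 7 stromal markers (median -0.03). Of the 5 endothelial and 5 steroidogenic markers tested, 3 each were below 0 (medians -0.77 and -0.55). Of the granulosa list, FOXL2 and WNT6 were wholly lower and FST wholly higher at T16. In the other marker lists, ACTA2 and MYH11 (smooth muscle) and DCN (stroma) were wholly lower, and CD68 (white blood cells) was wholly higher. FOXL2 had 3.37, 20.1 and 15.1 TPM at T16 and 38.5, 141 and 37.3 TPM at T0, WNT6 had 0.0547, 15.1 and 1.54 TPM at T16 and 39.0, 155 and 74.6 TPM at T0, and FST had 259, 513 and 288 TPM at T16 and 89.6, 90 and 24.4 TPM at T0. The part of these cells in the values of the ligands and binding proteins was not tested.

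Of the 22 PI3K side genes, 19 were tested, 2 lay wholly higher and 4 wholly lower. These were 10.5% and 21.1% of those tested, against 11.5% and 11.6% of all genes. GRB10, an adaptor that binds insulin and IGF receptors and dampens their signal, had 37.3, 14.9 and 11.7 TPM at T16 and 1.60, 2.61 and 1.61 TPM at T0 (log2 fold change 3.39, SE 0.55, edgeR adjusted p = 0.0872, DESeq2 adjusted p = 6.69e-07). GAB1 and GAB2, scaffolds that recruit PI3K to activated receptors, were wholly lower. GAB1 had 10.9, 15.3 and 3.43 TPM at T16 and 42.7, 93.0 and 89.5 TPM at T0 (log2 fold change -2.84, SE 0.54, edgeR adjusted p = 0.0985, DESeq2 adjusted p = 3.7e-05). GAB2 had 9.32, 2.87 and 4.34 TPM at T16 and 10.7, 27.5 and 27.3 TPM at T0 (log2 fold change -1.95, edgeR adjusted p = 0.124). INPP5K, a phosphatase of phosphoinositides, was wholly lower as well (log2 fold change -1.26, edgeR adjusted p = 0.221).

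The last list, of 21 other partners and targets of mTOR, also includes GRB10 and had 4 genes wholly higher and 2 wholly lower. These were 19% and 9.52% of the list, against 11.5% and 11.6% of all genes. EIF4A1, the helicase that works beside EIF4E, had 1142, 837 and 1024 TPM at T16 and 601, 331 and 503 TPM at T0 (log2 fold change 1.16, edgeR adjusted p = 0.267). PDCD4, which inhibits that helicase, had 33.8, 22.4 and 29.5 TPM at T16 and 40.3, 58.7 and 72.6 TPM at T0 (log2 fold change -0.85, edgeR adjusted p = 0.324). TTI2, which helps to assemble mTOR complexes, had 46.5, 52.3 and 62.7 TPM at T16 and 35.6, 21.4 and 21.7 TPM at T0 (log2 fold change 1.22, edgeR adjusted p = 0.218).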

How the data were processed

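RNA of pooled PMF was amplified with SMART-Seq v4 and sequenced. The authors trimmed reads with Trim Galore and fastp and quantified RefSeq transcripts of ARS-UCD1.3 with Salmon, and deposited estimated counts, TPM and an effective length (other values, used only as offsets) per transcript and library. No strand setting is given in the sources used here, so reads of overlapping genes cannot be told apart. Estimated counts and TPM were summed here to genes through a RefSeq table of ARS-UCD2.0, used for names only (50205 of 76123 transcripts, 9.7% to 10.9% of counts unmatched and left out), and counts were rounded. Transcripts left out in this way may be missing from the totals of single genes.

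T16 was compared with T0 in edgeR 4.0.16 (R 4.3.3; TMM, quasi-likelihood test, at least 10 counts in at least 3 libraries), with Benjamini-Hochberg adjustment over 14639 genes at an FDR of 0.05, in all 6 libraries without covariates. SE and 95% intervals come from that fit. Ratios of TPM were compared by two-sided exact permutation tests in SciPy 1.17.1. Alternatives were DESeq2 1.42.0, its size factors, no count filter, transcript length offsets, CPM, an oocyte covariate, the replicate number as a block and each library left out. The procedure was tested on simulated data.

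The 33 genes and the other lists were chosen with earlier results of these data known. Of the 33, values in every library are given for genes whose groups do not overlap in TPM, that have an unadjusted edgeR p or DESeq2 adjusted p below 0.05, that are highest in their functional group, or that enter 1 of the 7 ratios. Other genes named with every value (DEPTOR, AKT1S1, MLST8, TSC2, IGF1R, PIK3R3, FOXL2, WNT6, FST, CSF1R, CD68) were chosen after their values were seen. Of each other list, at most 4 genes are named, those whose groups do not overlap by lowest edgeR p, some by fold change alone. PF and SF libraries, sequences and some genes of the pathway were not analysed here.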

Additional observations from a re-analysis of the deposited data

How the results depend on the processing

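None of the 33 genes was called by edgeR under any alternative fit, whereas DESeq2 called 2 higher and 1 lower. Over 13 other fits, 24 of 429 refitted log2 fold changes of the 33 had the opposite sign, in 12 genes (IRS1, PIK3CB, PIK3R2, PIK3R3, SGK1, PHLPP1, GSK3B, TBC1D7, MTOR, RPTOR, RICTOR and EIF4EBP1). The other 21, with PIK3CA, EIF4E, PIK3CD and INSR among them, kept their sign. Over all genes, edgeR called 5 higher and 1 lower, DESeq2 594 higher and 433 lower, the fit without a count filter 4 lower, the fit with the oocyte covariate 9 higher and 3 lower, and leaving out 1 library 0 to 2 higher and 0 to 1 lower. With the replicate number as a block, 0 higher and 0 lower genes were called. No source used here says whether the numbers pair the samples. Same-numbered libraries deviated from their group means with correlations of -0.445, -0.121 and -0.005, which cannot settle it with 3 libraries a group. Under that block TRIB3, the 1 other pathway gene called, was lost (0 called). DESeq2 called 6 other pathway genes higher and 8 lower, and leaving out 1 library gave 0 to 1 higher. On TMM-scaled CPM in place of TPM, 4 of the 33 (PDPK1 and RPS6KB1 besides PIK3CA and EIF4E) lay wholly higher and 5 (TSC2, MAPKAP1 and DEPTOR besides INSR and PIK3CD) wholly lower, against 13.2% and 10.6% of all genes. Leaving out 1 library gave 2 to 8 of the 33 wholly higher, and 2 to 8 wholly lower, always with the same 4 genes among them, and 20 to 32 other pathway genes wholly lower. Fewer libraries overlap less by construction, and the highest share of all genes in those settings was 17.6% higher and 24% lower. Without both T16 replicate 2 and T0 replicate 1, 9 of the 33 lay wholly higher and 10 wholly lower, and 38 other pathway genes wholly lower, against 19.1% higher and 34.2% lower of all genes, and edgeR called 0 genes. The median log2 fold change of the 33 was 0.20, but -0.04 with the oocyte covariate, 0.21 without both of those libraries and -0.01 to 0.20 with 1 library left out, so its sign was not stable. The RPS6KB1 to RPS6KB2 ratio (log2 difference 0.19) ranged from -0.32 to 0.54 with 1 library left out, and was below 0 in the absence of T16 replicate 1 (-0.32) or T0 replicate 1 (-0.20). The GSK3A to GSK3B ratio (0.08) was -0.04 from estimated counts and ranged from -0.27 to 0.30 with 1 library left out, below 0 in the absence of T16 replicate 1 (-0.05) or T0 replicate 1 (-0.27). The cause was not tested. The other 5 ratios kept their direction in every alternative. With 3 libraries a group, the 95% interval of the log2 fold change extended over 1 (2-fold) to each side for 22 of the 33 genes, with a median half-width of 1.14 and a range of 0.66 to 3.92.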
